A study of Homo sapiens with 5 samples.

Results

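Among the 4717 JMJD3 binding sites of untreated BJ fibroblasts, 933 were at least 400 bp wide and shared at least 1 bp with a JMJD3 site of irradiated cells. These wide kept sites are described here. They were chosen by their width before ionizing radiation (IR) and by being listed again afterwards, so both properties are given as a description and not as a finding. The 4 deposited lists hold 43443 sites in all. BJ is a line of human diploid foreskin fibroblasts, used here in a telomerase-immortalized form. Chromatin was immunoprecipitated from untreated cells with a rabbit antibody raised against JMJD3, and from cells given 10 Gy of X-rays with the same antibody or with the p53 antibody DO-1. A p53 list of untreated cells served for comparison. The labels give 6 h between IR and harvest, and the text of the study 5 h. Each list comes from 1 library, so no test between untreated and irradiated cells was possible and every difference lacks a replicate check.

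JMJD3 (KDM6B) is a histone demethylase that removes methyl groups from lysine 27 of histone H3 (H3K27me2 and H3K27me3). This mark is written by the Polycomb repressive complex PRC2 and is linked to silent genes, so JMJD3 can counteract Polycomb repression. p53 is a transcription factor that is stabilized after DNA damage and binds response elements near genes of cell cycle arrest, DNA repair and apoptosis. In a list of binding sites, a wide site is a long stretch of ChIP signal that was listed as 1 region.

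The lists give positions on the hg18 assembly but no height, score or read number. The depth of the libraries is therefore unknown, and the list of irradiated cells is much longer, with 35133 JMJD3 sites covering 8.30 Mb against 1.69 Mb before IR. The smallest JMJD3 site was 200 bp wide before IR and 125 bp after it, whereas the smallest gap between neighbouring JMJD3 sites was 45 bp in both lists. Shorter breaks are therefore not visible, and a site listed as 1 region may hold some. Intervals in brackets are exact (Clopper-Pearson) 95% binomial intervals for shares and exact Poisson intervals for densities. They cover counting error only, as sites are not replicates. The part of depth and of detection settings in the differences below was not tested.

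The 933 wide kept sites had a median width of 561 bp, with the middle 50% of them between 465 and 780 bp. They made up 19.8% of the untreated sites and 41.4% of the untreated length, 698 kb in all. Of these sites 141 were at least 1000 bp wide and 33 at least 2000 bp. The distribution thus had a long tail, in which the 5 widest sites held 5.06% of the length. Across all untreated sites, 86.8% were listed again after IR, and among those of at least 400 bp the share was 97.9% (96.8 to 98.7%). For the members, being listed again is fixed by the rule. Just inside and just outside the width limit, the counts were as follows. Of the 42 members of 400 to 409 bp, 3 overlapped more than 1 site after IR and 31 had a new site within 5 kb, against 6 and 45 of the 60 kept sites from 390 bp up to the limit. The median share of bases still covered was 85.4% just inside and 94.4% just outside.

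The widest of all lay at chr15:37660554-37676546 (15993 bp). After IR it was covered by 3 sites of 11349, 3964 and 748 bp, which together held 99.0% of its bases. Another of the 5 widest, chr15:37676933-37680034 (3102 bp), began within 400 bp of its end and was covered completely by 1 site after IR of 3247 bp. With gaps of at most 1 kb bridged, the pair lay in 1 stretch of 19481 bp before IR and 21248 bp after it. The site at chr11:65024001-65032123 (8123 bp) was likewise covered by 3 sites after IR, of 2435, 1115 and 4354 bp, holding 97.3% of its bases. A single site of 4942 bp covered 98.1% of the site at chr1:85818967-85823692 (4726 bp). The site at chr17:77417030-77420409 (3380 bp) lay within 1 site of 4189 bp after IR. In each of these 5 sites nearly the full length was listed again, and none held a p53 site of irradiated or untreated cells. Few untreated JMJD3 sites did, as 1.84% of all of them overlapped a p53 site of irradiated cells and 0.0636% one of untreated cells. An annotation of hg18 was not used here, so the sites are given by position and are not assigned to genes.

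**Figure D1:**
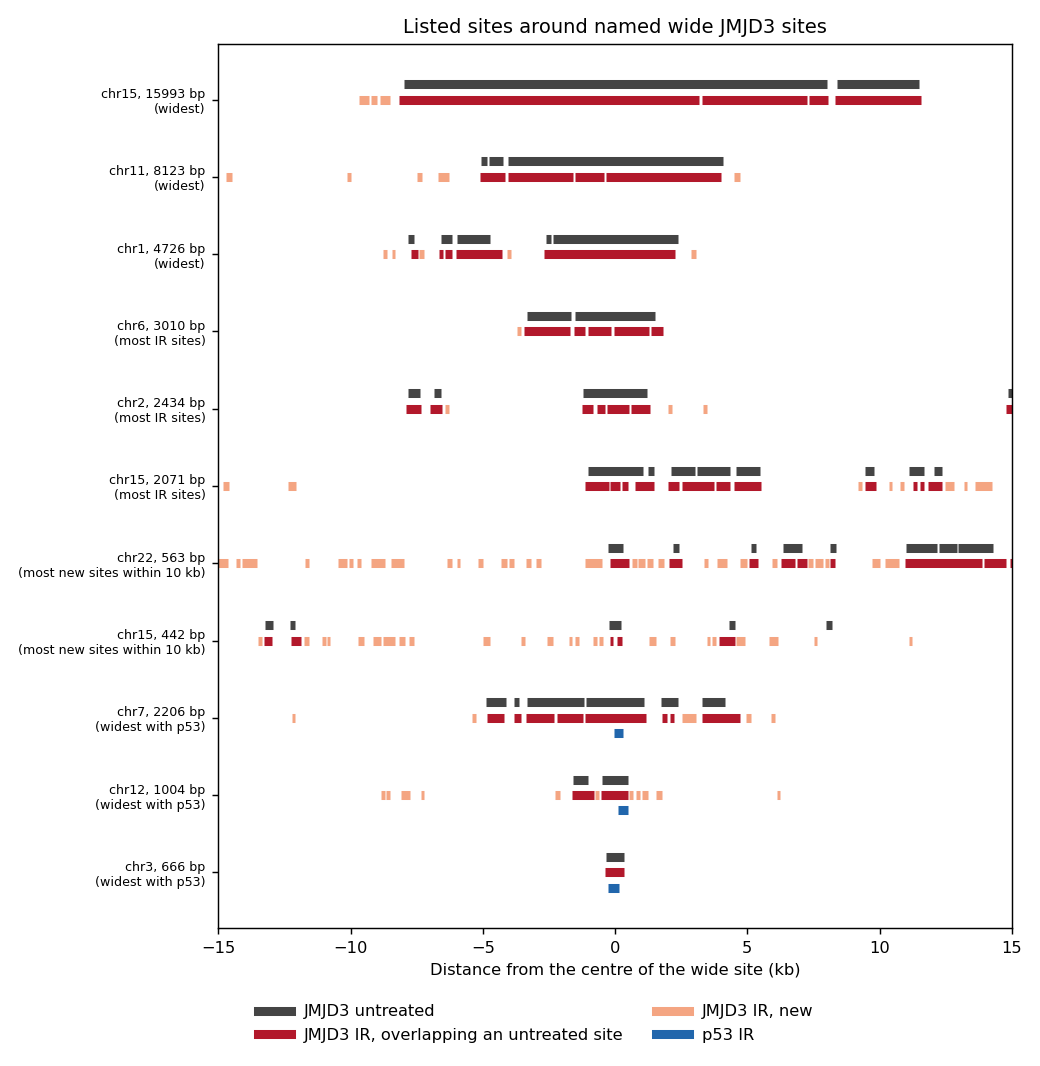
Listed sites around 11 named wide JMJD3 sites, by distance in kb from the centre of the wide site. Each row shows JMJD3 sites before IR (grey), JMJD3 sites after IR that overlap an untreated site (dark red) or are new (light red), and p53 sites after IR (blue). The 3 widest sites were covered over nearly their whole length after IR, the 3 most split ones lay under 4 sites each, and p53 sites appear only in the 3 rows chosen for them.

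Splitting. Of the 933 sites, 718 (77.0%) overlapped 1 JMJD3 site after IR, 189 overlapped 2, 23 overlapped 3 and 3 overlapped 4. Splitting into 2 or more was thus seen at 215 sites (23.0%, 20.4 to 25.9%), against 7.27% of all untreated sites and 4.05% (3.39 to 4.79%) of the 3162 narrow kept sites, those under 400 bp that were listed again. The classes differ in width by the rule, so this difference is a description. Among the members the share was also higher in wider groups. It was 13.7% (10.3 to 17.9%) at 400 to 499 bp, 25.1% at 500 to 749 bp, 27.9% at 750 to 999 bp, 35.2% at 1000 to 1999 bp and 42.4% (25.5 to 60.8%) among the 33 widest. The breaks were short. The 244 gaps between pieces had a median of 90 bp and ranged from 45 to 452 bp, and 221 of them (90.6%) were under 200 bp. When sites after IR closer than 200 bp were joined, only 23 members (2.47%, 1.57 to 3.68%) still lay under 2 or more. In a split member the largest piece made up a median of 64.3% of the summed width, and 78 of the 215 had a piece under 200 bp, narrower than any site of the untreated list.

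The 3 sites under 4 pieces were all over 2000 bp wide. At chr6:132311032-132314041 (3010 bp) the pieces were 385, 873, 1303 and 475 bp wide and held 89.0% of the bases. At chr2:85626028-85628461 (2434 bp) they were 389, 302, 832 and 722 bp wide and held 87.6%. At chr15:30797609-30799679 (2071 bp) they were 904, 345, 243 and 718 bp wide and held 80.5%. The summed width of the pieces was 1.01, 0.922 and 1.07 times that before IR, which includes bases outside the site, and the last piece on chromosome 15 also overlapped another untreated site. None of the 3 held a p53 site. Over all untreated JMJD3 sites, 1.84% overlapped one after IR.

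**Figure D2:**
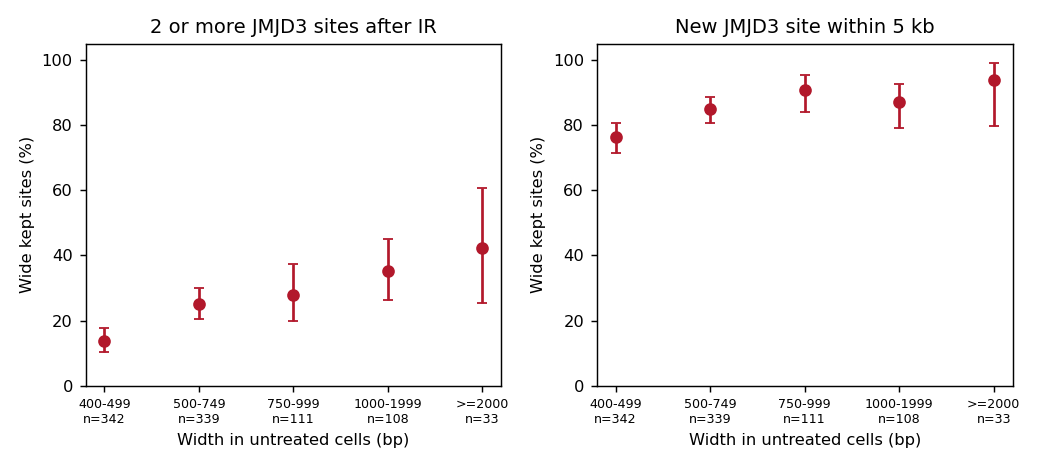
Share of wide kept sites, in percent, that overlapped 2 or more JMJD3 sites after IR (left) or had a new JMJD3 site within 5 kb (right), by width in untreated cells in bp. Points are shares and bars exact 95% intervals, with n sites under each group. The split share is 13.7% in the narrowest and 42.4% in the widest group, and the share with a new neighbour 76.3% and 93.9%.

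Covered length. The members covered 698 kb before IR, and the 1089 distinct JMJD3 sites that overlapped them after IR covered 823 kb, 1.18 times as much. Of the original bases 616 kb (88.3%) were still covered. The other 81.3 kb were lost, 26.7 kb in gaps between pieces and 54.7 kb at the edges. Against this, 180 kb were added outside any untreated site. The typical member kept 93.8% of its bases, 333 of the 933 (35.7%) were covered completely, and 72 (7.72%) kept under 50%. Of the narrow kept sites, 41.7% were covered completely, while 83.7% of their bases were still covered. The 1089 sites were only 3.10% of the JMJD3 sites after IR but held 9.91% of their length. Their median width of 533 bp compared with 178 bp for the 30955 new sites, which share no base with an untreated site.

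Single members moved in both directions. Of the 718 that lay under 1 site after IR, 510 (71.0%) were wider after IR and 207 narrower, and the ratio of widths had a median of 1.20 with the middle 50% between 0.945 and 1.73. Of the 215 split members, 141 (65.6%) had a larger summed width after IR. Over all members 69.8% were wider after IR, close to the 72.0% of the narrow kept sites. For the narrow kept sites the summed length was 1.48 times as high after IR, but the width before IR both defines the classes and divides the ratio, so no difference between the classes is drawn from it. Some sites after IR joined several untreated ones. A total of 236 members (25.3%) lay under a site after IR that also overlapped another untreated site, and 1 such site overlapped 8. Such a site counts with its full width for each member under it. This can raise the widths after IR of single members and the shares of wider members. Those values were not recalculated without such sites. With all untreated sites under these joined sites counted in the length before IR, an alternative added once the values were known, the ratio was 1.13. The sites after IR reached past both ends of 458 members, past 1 end of 357 and past neither of 118. The reach was similar on both sides, with medians of 131 bp towards lower and 118 bp towards higher coordinates.

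**Figure D3:**
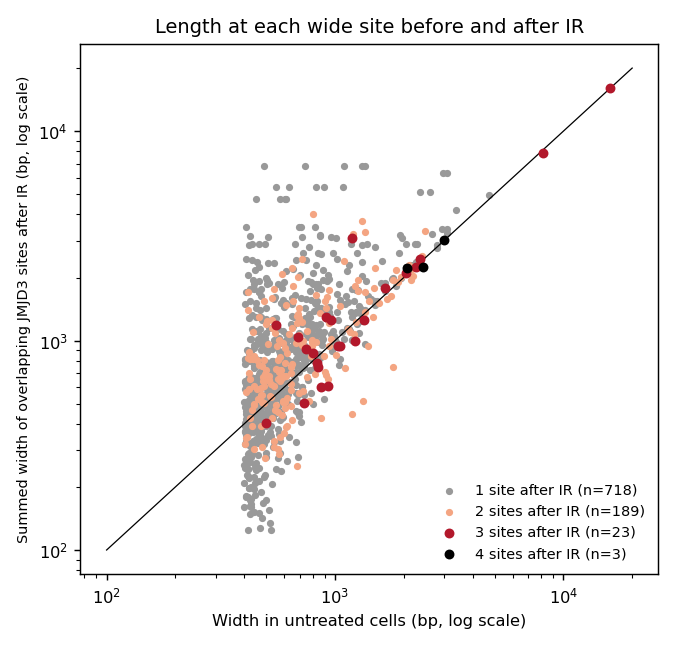
Summed width in bp of the JMJD3 sites after IR that overlap each wide kept site, against its width in bp in untreated cells, both on log scales. Each point is 1 of 933 sites, coloured by how many sites after IR it overlaps, and the line marks equal length. A site after IR that overlaps several members is counted in full for each. Most points (69.8%) lie above the line, and the 2 widest sites lie almost on it.

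Spread of new sites. Around the wide kept sites the JMJD3 sites of irradiated cells were dense. A new site lay within 5 kb of 775 members (83.1%, 80.5 to 85.4%), against 67.9% of all untreated sites and 64.5% (62.9 to 66.2%) of the narrow kept ones. Within 1 kb of the edge the share was 57.3% (54.1 to 60.5%) against 41.1% (39.4 to 42.9%). Measured from the centre of the site, where the window includes the site itself, the shares within 1 kb were closer, at 44.4% (41.2 to 47.6%) and 38.7% (37.0 to 40.4%), and those within 5 kb were 82.0% (79.4 to 84.4%) and 64.2% (62.5 to 65.9%). Of the 20 wide sites not listed again, 17 (85%, 62.1 to 96.8%) had a new site within 5 kb of the edge. Within 1 kb of the edge, 12 (60%, 36.1 to 80.9%) had one. A new site nearby is thus not shown to be particular to wide sites that were kept. A member had a mean of 2.99 new sites within 5 kb, a median of 3 and at most 13, and 231 members (24.8%) had 5 or more. The mean was 2.01 around narrow kept sites, of which 14.9% had 5 or more, against 16.6% of all untreated sites. In total 1766 new sites, 5.71% of all, lay within 5 kb of a member and covered 425 kb. New sites lay on both sides of 461 members (49.4%), on 1 side of 314 and on neither side of 158. Of the 475 members with 3 or more new sites, 91 (19.2%) had all of them on 1 side.

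Leaving aside chromosome 8, whose sites were counted but are not named and which held members with 22 and 20, the members with the most new sites within 10 kb were not among the widest. The site at chr22:44877210-44877772 (563 bp) had 26, the site at chr15:78993410-78993851 (442 bp) had 19, and the site at chr22:44883827-44884554 (728 bp) had 18, a count shared with chr15:78866609-78867291 (683 bp). The 2 sites on chromosome 22 are neighbours, so their counts share sites. When JMJD3 sites with gaps of at most 1 kb were joined into runs, both lay in the same run of 18 sites after IR, which spanned 9449 bp. Before IR each of them had stood alone at this distance. By contrast, the widest site of all had 3 new sites within 10 kb.

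Over all members, the run that held a member had a median span of 1562 bp before IR and 3776 bp after it, and it was longer after IR for 825 members (88.4%). The median number of sites in the run after IR was 5 and the largest 23. A run of at least 3 kb held 275 members before IR and 530 after it. The distinct runs together spanned 1081 kb before IR and 1941 kb after it, 1.80 times as much, while the members' own covered length was 1.18 times as high. Runs were not measured around the narrow kept sites or over all untreated sites. As the JMJD3 list after IR is much longer, the longer runs are not shown to be particular to the members.

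The density of new sites was highest close to the members. It was 429 per Mb (383 to 479) in the first 500 bp from the edge of a member, 539 (483 to 600) at 500 to 1000 bp, 355 (322 to 390) at 1 to 2 kb, 203 (188 to 219) at 2 to 5 kb and 104 (95.6 to 113) at 5 to 10 kb. At 50 to 100 kb it was 30.4 (28.8 to 32.1). The first 500 bp were partly taken up by the sites that overlap a member, and without those bases, another alternative added once the values were known, both inner zones had a density close to 570 per Mb (570 and 573). Within 5 kb the density was 297 per Mb (283 to 311), 9.75 times that at 50 to 100 kb. The ratio was 4.33 with new sites within 1 kb of an untreated site left out and 6.50 with sites after IR joined across gaps of up to 200 bp. In the lists as deposited, the ratio was above 1 on each of the 23 chromosomes that held a member, with a median of 9.44 and a range from 2.93 on chromosome 14, with 13 members, to 26.5 on chromosome 16, with 25. Around the narrow kept sites the density within 5 kb was 159 per Mb (154 to 164), 8.31 times their own value at 50 to 100 kb. For the 2437 narrow kept sites more than 10 kb from every wide one it was 122 (117 to 126), 5.89 times their own value at 50 to 100 kb. The density near wide sites was thus higher than near narrow ones, and it was also higher at 50 to 100 kb, where it was 30.4 against 19.2 per Mb (18.5 to 19.9). The wide sites also stood closer to other untreated JMJD3 sites. Another untreated site lay within 5 kb of 705 members (75.6%, 72.7 to 78.3%), against 39.6% (37.9 to 41.3%) of the narrow kept sites. How much of the difference in new sites goes with this clustering was not tested. New sites within 5 kb of a member were wider, with a median of 196 bp and 49.2% of at least 200 bp, than the 15792 new sites over 100 kb from any untreated site, with a median of 175 bp and 36.7%. Near narrow kept sites the values were close to those near members, at 191 bp and 46.7%.

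**Figure D4:**
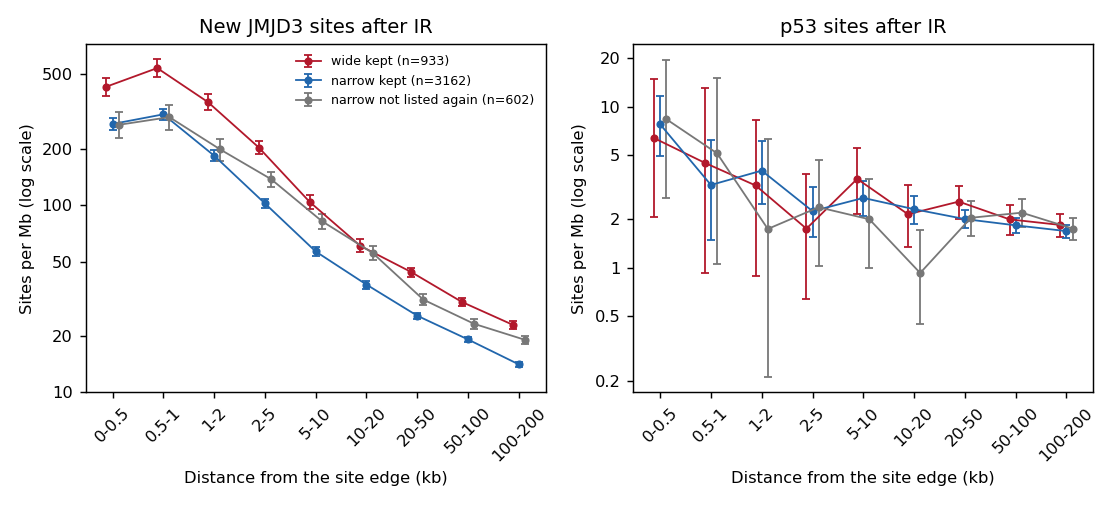
Density of new JMJD3 sites (left) and p53 sites (right) after IR, per Mb on a log scale, in zones by distance in kb from the nearest edge of a wide kept (red), narrow kept (blue) or narrow not listed again (grey) JMJD3 site. Bars are exact 95% Poisson intervals. New JMJD3 sites around wide kept sites range from 539 to 23.0 per Mb, whereas p53 sites range from 6.40 to 1.75 per Mb.

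p53 after IR. The p53 lists were not used to choose the sites. Of the 933 wide kept sites, 15 (1.61%, 0.903 to 2.64%) overlapped a p53 site of irradiated cells, against 1.84% of all untreated JMJD3 sites and 2.15% (1.67 to 2.72%) of the narrow kept ones. The intervals overlap, so no difference per site was detectable. Per covered length there were 21.5 p53 sites per Mb (12.03 to 35.5) in the wide kept sites and 81.2 (63.1 to 103) in the narrow kept ones, and by p53 centres 17.2 (8.89 to 30.0) and 66.9 (50.5 to 86.9). These intervals do not overlap, but the length is the width that the rule used, so the densities are a description. Within 1 kb of the centre, a window of the same size for both, the shares were 2.04% (1.23 to 3.16%) and 2.85% (2.29 to 3.49%). Within 10 kb they were 7.29% (5.70 to 9.15%) and 7.50% (6.60 to 8.47%). Restricting the p53 list to its wider 50% turned the order, to 1.39% (0.744 to 2.37%) of wide and 0.980% (0.667 to 1.39%) of narrow kept sites, again with overlapping intervals.

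The 15 overlaps involved 15 different p53 sites on 9 chromosomes, and each p53 site also overlapped a JMJD3 site after IR. The rule makes this likely, since every member overlaps a JMJD3 site after IR and 88.3% of the members' bases stayed covered. These p53 sites had a median width of 352 bp, against 288 bp for the p53 list as a whole. They shared between 30 and 418 bp with the member, and the centres were a median of 127 bp apart. The widest member with p53 was chr7:5531149-5533354 (2206 bp). Its p53 site, chr7:5532205-5532545, lay close to the middle, 124 bp from centre to centre, and 1 JMJD3 site of 2284 bp covered the whole member after IR. At chr12:55775534-55776537 (1004 bp) the p53 site of 400 bp lay towards 1 end, 294 bp from the centre. At chr3:129882246-129882911 (666 bp) a p53 site of 415 bp took up more than 50% of the member, and no new JMJD3 site lay within 10 kb. At chr2:192268580-192269228 (649 bp) the p53 site shared only 30 bp with the untreated site but lay within the site after IR, 1311 bp wide, which also joined another untreated site, and 8 new sites lay within 5 kb. At chr4:143545664-143546268 (605 bp) the p53 site of 283 bp lay in 1 of 2 pieces, of 312 and 607 bp. The members with p53 thus ranged from a lone site to one amid many new sites: 10 of the 15 had a new site within 5 kb and 2 were split.

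Few of the new JMJD3 sites close to the members lay at p53. Of the 1766 new sites within 5 kb of a wide kept site, 6 (0.340%, 0.125 to 0.738%) overlapped a p53 site after IR. The share was 0.719% (0.482 to 1.03%) near narrow kept sites, 2.01% (1.86 to 2.17%) among all new sites and 2.37% (2.14 to 2.62%) among those over 100 kb from any untreated site. The interval near members lay below the last one and overlapped that near narrow kept sites, and the width of the new sites near members, given above, was larger than that of the distant ones. The share is per new site, and new sites were denser near the members (297 per Mb) than at 50 to 100 kb (30.4). A low share therefore does not show that p53 sites were fewer near the members. The density of p53 sites was 2.95 per Mb (1.75 to 4.66) within 5 kb of the members and 2.003 (1.61 to 2.47) at 50 to 100 kb, with overlapping intervals. Around the narrow kept sites it was 3.36 (2.69 to 4.15) and 1.84 (1.64 to 2.05), intervals that do not overlap, and over the whole span of the lists 1.10 per Mb. Whether the 2 classes differ in this was not tested. The median distance from a member to the nearest p53 site was 174 kb, close to the 165 kb of the narrow kept sites. The nearest new JMJD3 site was a median of 0.771 kb away, against 1.71 kb for the narrow kept sites. In untreated cells no p53 site overlapped a wide kept site or lay within 1 kb of one. By the limit of 3 counts, a count of 0 in 933 allows a share of up to 0.322% (0.395% by the exact interval), and the share over all untreated JMJD3 sites was 0.0636%.

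**Figure D5:**
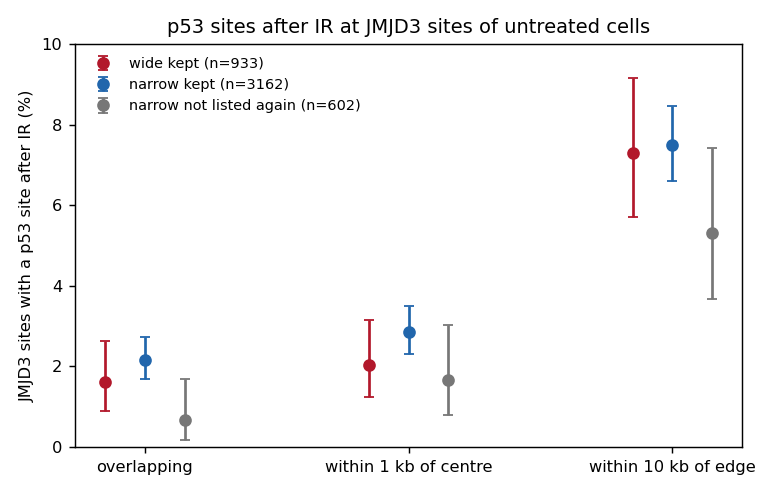
Share of JMJD3 sites of untreated cells, in percent, with a p53 site after IR that overlaps them, lies within 1 kb of their centre or within 10 kb of their edge. Points are shares and bars exact 95% intervals for wide kept (red), narrow kept (blue) and narrow not listed again (grey) sites. The intervals of wide and narrow kept sites overlap under each of the 3 rules.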

How the data were processed

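Binding of JMJD3 and p53 was measured by ChIP-seq in untreated and irradiated BJ cells. The authors aligned tags to hg18 with Bowtie 0.12.7, keeping unique alignments, and called peaks in each library with MACS2 against reads of an IgG control (SAMtools is also named in the submitters' processing notes). The threshold is not given in the sources used here. The deposited files hold only positions (chromosome, start, end). The series holds 1 IgG library, from untreated cells and none from irradiated cells. It was not analysed here.

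Sites were compared in Python 3.11.15 with numpy 2.4.6 and pandas 2.3.3. Wide means at least 400 bp, overlap at least 1 bp, and new a JMJD3 site after IR that shares no base with an untreated one. bedtools 2.31.1 gave the same 933 sites and 15 p53 overlaps. Zones were measured from site edges, each base counted once, with new sites placed by their centre. Intervals came from scipy 1.17.1 and figures from matplotlib 3.10.9. On simulated data 200 of 200 planted overlaps were recovered. Named sites are the 5 widest members, the 3 with most sites after IR, the 3 with most new sites within 10 kb, the 5 widest with p53 and the 3 widest not listed again. Those on chromosome 8 were counted but not named. The members, rules and alternatives were chosen with earlier results of these data known. Positions count from 1.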

Additional observations from a re-analysis of the deposited data

How the results depend on the processing

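Each of the 6 main results was recalculated under its alternatives, 46 times in all. Of these, 27 stayed within the counting interval (for the length ratio, within 10%) and 19 moved beyond it. The share of wide sites kept was 95.8% with a minimum width of 300 bp, 99.5% with 600 bp, 90.3% when sites after IR had to cover 50% of each site and 93.9% with sites after IR of at least 200 bp. The split share was 16.0%, 31.0% and 16.3% with widths of 300 and 600 bp and with sites after IR of at least 200 bp, and 2.47% after joining sites within 200 bp. Joining gave a length ratio of 1.52, since gaps and neighbouring sites joined to the pieces then count as covered. A new site within 5 kb was found for 78.1% and 88.8% of sites at 300 and 600 bp, for 65.6% with sites after IR of at least 200 bp and for 72.6% after joining. Within 1 kb the share was 57.3% and within 10 kb 89.6%. The density ratio was 11.7 with sites of at least 200 bp, 6.50 after joining, 12.9 against 100 to 200 kb, and 4.33 when new sites within 1 kb of an untreated site were left out, which empties the innermost bases by construction. The p53 share stayed between 1.29% and 2.36%, but its order against the narrow kept sites turned with the wider 50% of p53 sites (1.39% against 0.980%). Causes were otherwise not tested. No paired analysis was possible because each group has 1 library. With unknown depth, a site missing from a list is not shown to be unbound.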

Other observations

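Of the 953 untreated JMJD3 sites of at least 400 bp, 20 had no overlapping JMJD3 site after IR. They were 402 to 841 bp wide, with a median of 461 bp. A JMJD3 site after IR lay within 1 kb of 13 of them and within 5 kb of 17, so most stood close to sites of irradiated cells without sharing a base. The widest, chr6:27886089-27886929 (841 bp), was 13265 bp from the nearest site after IR. The site at chr10:73706359-73707048 (690 bp) had 3 new sites within 5 kb, the nearest 1624 bp away. For chr6:26212228-26212816 (589 bp) the nearest was 5215 bp away. Chromosome 6 held 5 of the 20, among them the 3 without a JMJD3 site after IR within 5 kb, and 59 of the 933 wide kept sites. The chromosome was singled out after its values were seen. None of the 20 overlapped a p53 site after IR, which by the limit of 3 counts allows a share of up to 15% (16.8% by the exact interval).

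The wide kept sites were spread over 23 chromosomes. On the 17 chromosomes with at least 20 of them, they made up between 10.8% of the untreated JMJD3 sites, on chromosome 4, and 26.7%, on chromosome 5. The share of them split into 2 or more sites after IR ranged there from 8.70% on chromosome 10 to 34.6% on chromosome 15.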
